A study of Mus musculus with 6 samples.

Results

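The miRNA miR-22 is made from a single mouse hairpin, and both of its mature arms, miR-22-3p and miR-22-5p, were measured by small RNA sequencing of c-kit+ cardiac progenitor cells. The 2 arms were taken by name, as 2 of the 1978 known mature miRNAs in the deposited count table, and both passed the filter on low counts that left 619 known miRNAs for testing. The cells are heart cells that carry the receptor c-kit, sorted with magnetic beads from digested hearts of wild-type male C57BL/6 mice aged 4 to 6 weeks. The hypoxia group (3 libraries) was cultured for 12 hours in low oxygen, and the control group (3 libraries) is labelled 0 hours. Control samples also carry the treatment label hypoxia. Titles and hours were used to tell the groups apart, and no other agent or allele is named for either group. The labels speak of biological replicates but name no animal or culture for any library. A p-value here therefore weighs a difference against the spread of these 6 libraries, part of which may be technical. Unless the control cells were also kept for 12 hours, hypoxia and time in culture cannot be told apart.

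Columns of the table are headed by a digit and a letter. Columns with digit 0 were taken as control (0 hours) and those with digit 1 as hypoxia, and all directions given here assume this. The letters A, B and C match no sample label, so each library is called by its group and letter. The extraction protocol in the labels names exosomes where the design text names cells, and the values are described here as cellular ones.

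A hairpin precursor is cut by Drosha and Dicer into a short duplex, of which one strand, the guide, is usually kept in an Argonaute protein and the other, the passenger, is mostly lost. Bases 2 to 8 of the kept strand, the seed, choose the messenger RNAs that it represses. In mouse heart, miR-22-3p is an abundant miRNA of muscle and is known for its part in hypertrophic growth of cardiomyocytes under stress, with the deacetylases Sirt1 and Hdac4 among its described targets. miR-22-5p is the less abundant strand of the same duplex, and its targets are less studied.

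Both arms and their precursor are shown because the results compare these 2 strands. The sequences are from RefSeq (build GRCm38.p6), written 5′ to 3′ with the seed of each arm in capitals, and in the hairpin with the 2 arms in capitals.
mmu-miR-22-5p: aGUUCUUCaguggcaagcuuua
mmu-miR-22-3p: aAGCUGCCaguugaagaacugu
Mir22 hairpin: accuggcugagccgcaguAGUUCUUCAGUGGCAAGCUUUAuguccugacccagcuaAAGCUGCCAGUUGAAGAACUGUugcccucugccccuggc

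The Mir22 hairpin is 95 bases long and lies on the plus strand of chromosome 11, at chr11:75463716-75463810. The 5p arm comes from chr11:75463734-75463755 and the 3p arm from chr11:75463772-75463793. In the GENCODE M21 annotation of the same build the whole hairpin falls within exon 2 of the noncoding host gene Mir22hg. It also falls within exon 2 of a transcript, annotated as noncoding, of the overlapping protein-coding gene Tlcd2. Both arms are 22 bases long and begin with A, and 16 bases separate them in the hairpin. When the hairpin was folded with RNAfold, its predicted free energy was -41.9 kcal/mol and 19 of the 22 bases of the 5p arm paired with bases of the 3p arm, 1 of them as a G-U pair. All 7 seed bases of each arm were paired with the other arm in that fold.

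Of the 1978 known miRNAs, 1679 had a mature sequence in the RefSeq table. None of these other miRNAs shared bases 2 to 8 with either arm. For bases 2 to 7 none matched miR-22-3p, and 2 matched miR-22-5p, miR-6935-3p and miR-7092-3p, neither with more than 3 counts in any library. No other known miRNA had counts within 1% of either arm's in every library, so neither arm showed the pattern of 2 names counted from the same reads.

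Known miRNA totals ran from 13170756 to 16975987 counts in the hypoxia libraries and from 12285970 to 15166638 in the control libraries. The most abundant miRNAs, miR-21a-5p and miR-126a-3p, together took 50.8% ± 1.46 of the counts in hypoxia and 52.2% ± 2.05 in control (SD, n = 3 each). The endothelial marker miR-126a-3p thus stood near the top, while c-kit itself, a messenger RNA, is not measured by these tables. The 5 cardiomyocyte markers were low, with summed shares of 0.0107% to 0.0166% in hypoxia and 0.00791% to 0.0153% in control. Of these, miR-1a-3p had 935 to 2387 counts per library, miR-133a-3p 92 to 348 and miR-499-5p 12 to 68, while miR-208a-3p had at most 9 and miR-208b-3p at most 3, and these last were not tested. All 3 tested cardiomyocyte markers had log2 fold changes above 0 (median 0.52), with SEs of 0.34 to 0.51. Over all 619 tested miRNAs 317 lay above 0, with a median of 0.01. None of these 3 markers passed edgeR (smallest adjusted p = 0.88), and their part in the values of miR-22 was not tested. The 5 fibroblast and smooth muscle markers summed to 2.78% to 5.37% in hypoxia and 2.67% to 5.77% in control. The 6 blood markers summed to 0.00131% to 0.00295% in hypoxia and 0.00151% to 0.00284% in control, with 93 to 347 counts per library for miR-150-5p of lymphocytes, and 13 to 94 for miR-451a and 0 to 4 for miR-144-3p of red cells. These summed ranges overlapped between the groups for each of the 4 lists, counting the endothelial one with 21.4% to 24.7% in hypoxia and 22.4% to 23.5% in control.

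miR-22-3p was among the most abundant miRNAs of these cells and did not pass the test between hypoxia and control. It had 291519 counts in hypoxia A, 451114 in hypoxia B and 259048 in hypoxia C, against 275242 in control A, 256169 in control B and 316829 in control C. These were 1.87%, 2.66% and 1.97% of known miRNA counts in hypoxia A, B and C, against 2.24%, 1.76% and 2.09% in control A, B and C. Hypoxia B was the highest of the 6 libraries and control B the lowest, and the other hypoxia libraries lay within the control range. Over all 6 libraries miR-22-3p took 2.10% ± 0.321 of known counts (SD, n = 6), and the highest share was 1.51 times the lowest.

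The 2 groups overlapped in the share of miR-22-3p. It averaged 2.16% ± 0.430 in hypoxia and 2.03% ± 0.244 in control (SD, n = 3 each). The gap of 0.134 percentage points did not exceed the spread (exact two-sided permutation p = 0.8, where the smallest possible is 0.1). Counting error, with every read taken as independent, was far smaller than this spread. The exact Clopper-Pearson 95% interval was 2.65% to 2.67% in hypoxia B and 1.76% to 1.77% in control B. Such an interval leaves out differences between libraries. It is also too narrow where reads are PCR copies, which do not stand for separate molecules.

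On the CPM scale, which sets each count against its library's TMM-scaled total, the level of miR-22-3p was 17524, 27669 and 18800 in hypoxia A, B and C and 22286, 19686 and 20173 in control A, B and C. The level averaged 21331 ± 5526 CPM in hypoxia and 20715 ± 1382 CPM in control (SD, n = 3 each). On this scale hypoxia B was again the highest, but the lowest library was hypoxia A. Control B, the lowest by share, had the smallest scaling factor (0.896) and stood above hypoxia A and C on this scale.

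The log2 fold change of miR-22-3p was 0.042 (SE 0.19), with a 95% interval from -0.38 to 0.47, or 0.767-fold to 1.38-fold (edgeR quasi-likelihood, adjusted p = 0.99 over 619 miRNAs). Its direction depended on single libraries. Without hypoxia B the log2 fold change was -0.21 and without control B it was -0.012. The same edgeR test called 0 of the 619 known miRNAs (0% called), with 42 at an unadjusted p under 0.05, while limma-voom called 0 of the same 619. DESeq2 called 1 of the 1322 miRNAs with any count. That larger set had not passed the filter on low counts, but DESeq2 applies its own filter before adjustment. With the letter as a replicate block edgeR called 14 (2.26%), and neither miR-22 arm was among them. Within letters the difference in log2 CPM of miR-22-3p, hypoxia minus control, was -0.35 in the A libraries, 0.49 in the B libraries and -0.10 in the C libraries.

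**Figure D1:**
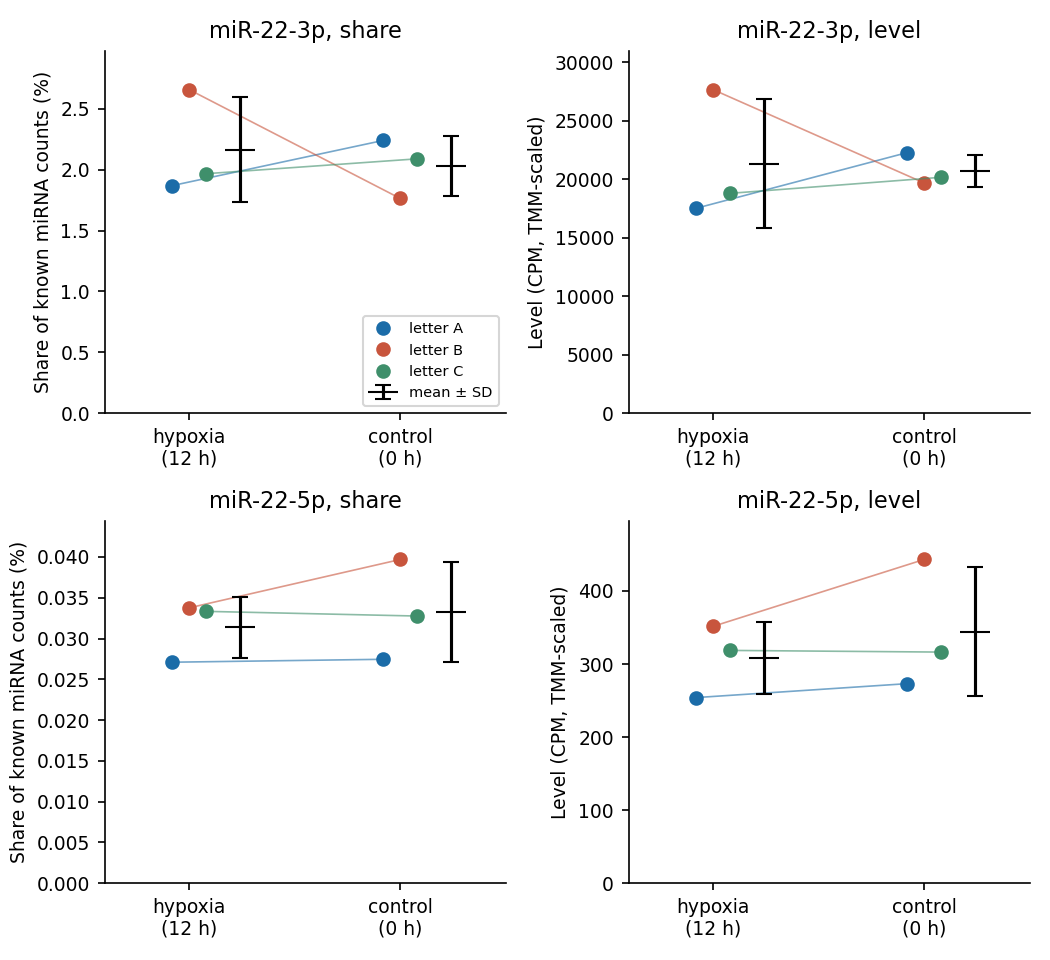
Shares of known miRNA counts (left, %) and TMM-scaled levels (right, CPM) of miR-22-3p (top) and miR-22-5p (bottom) in the 3 hypoxia and 3 control libraries. Points are libraries, lines join libraries with the same column letter, and black bars are means ± SD. The groups overlap in all 4 panels. Hypoxia B stands highest for miR-22-3p (2.66%) and control B for miR-22-5p (0.0397%).

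miR-22-5p was sequenced far less and also did not pass the test. It had 4226 counts in hypoxia A, 5731 in hypoxia B and 4390 in hypoxia C, against 3373 in control A, 5766 in control B and 4968 in control C. Its share of known counts was 0.0271%, 0.0338% and 0.0333% in hypoxia A, B and C, against 0.0275%, 0.0397% and 0.0328% in control A, B and C. The A libraries were the lowest of their groups and the B libraries the highest, so the order of the letters was A, C, B in both groups. The share averaged 0.0314% ± 0.00373 in hypoxia and 0.0333% ± 0.00614 in control (SD, n = 3 each), and the groups overlapped (exact two-sided permutation p = 0.8, where the smallest possible is 0.1).

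In scaled levels miR-22-5p stood at 254, 352 and 319 CPM in hypoxia A, B and C and at 273, 443 and 316 CPM in control A, B and C. The level averaged 308 ± 49.6 CPM in hypoxia and 344 ± 88.4 CPM in control (SD, n = 3 each). The log2 fold change was -0.16 (SE 0.23), with a 95% interval from -0.70 to 0.38, or 0.617-fold to 1.30-fold (edgeR adjusted p = 0.99). Without control B, the library with the highest level, it was 0.043. Within letters the difference in log2 CPM was -0.10 in the A libraries, -0.33 in the B libraries and 0.010 in the C libraries.

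The ratio of the arms compares both strands of the same hairpin within a library and needs no scaling to depth. Between 44.4 and 81.6 counts of miR-22-3p were found for each count of miR-22-5p. The ratio was 69.0, 78.7 and 59.0 in hypoxia A, B and C, against 81.6, 44.4 and 63.8 in control A, B and C. Control libraries gave both the highest (A) and the lowest (B) ratio, and all 3 hypoxia libraries fell between them. The 5p arm made up 1.43%, 1.25% and 1.67% of the reads of both arms in hypoxia A, B and C, against 1.21%, 2.20% and 1.54% in control A, B and C. For control B the exact 95% interval of that share was 2.15% to 2.26%, which overlapped no other library's interval. How efficiently each strand is cloned and sequenced was not measured, so the ratio is one of reads and is used here to compare libraries.

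The arm ratio averaged 68.9 ± 9.85 in hypoxia and 63.3 ± 18.6 in control (SD, n = 3 each), and the difference did not exceed the spread (exact two-sided permutation p = 0.7, where the smallest possible is 0.1). Limma was fitted to the log2 arm ratios of 189 hairpins, those with both arms tested under matching names. In it miR-22 had a difference of 0.16 (SE 0.27), with a 95% interval from -0.46 to 0.78 (limma adjusted p = 0.80). Without control B the difference was -0.076. That fit called 2 of the 189 hairpins (1.06%), miR-96 and miR-182, which are named here after their values were seen, and it called 0 with the letter as a replicate block, where 28 had an unadjusted p under 0.05. The groups did not overlap in arm ratio for 35 hairpins (18.5%), and miR-22 was not among them. Within letters the log2 ratio of miR-22, hypoxia minus control, was -0.24 in the A libraries, 0.83 in the B libraries and -0.11 in the C libraries.

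**Figure D2:**
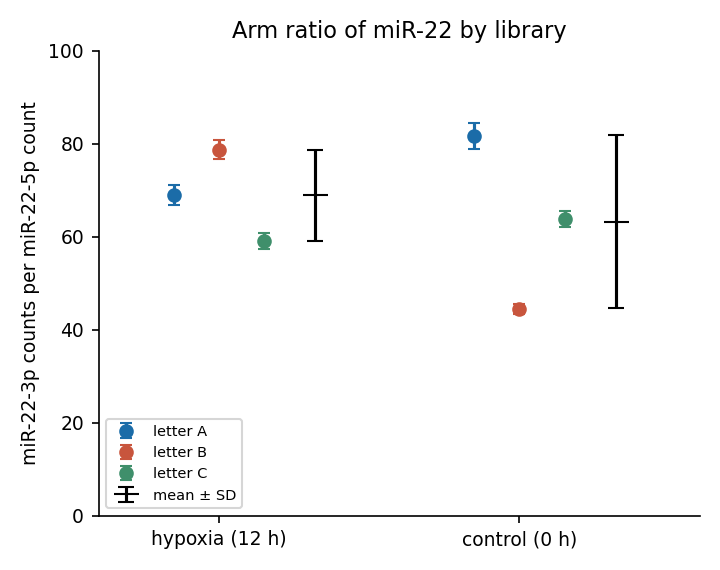
Counts of miR-22-3p per count of miR-22-5p in each of the 3 hypoxia and 3 control libraries. Coloured bars are exact 95% intervals for counting error with every read taken as independent, and black bars are means ± SD. The 3 hypoxia libraries (59.0 to 78.7) lie between control B (44.4) and control A (81.6).

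The 189 hairpins were matched by arm name. Those whose arms carry unlike names, such as miR-24-3p with miR-24-1-5p, were left out, and the ranks do not cover them. Hairpins with an arm that failed the filter on low counts were left out too. Strongly one-sided hairpins with a rare second arm can therefore be missing from the ranks and the median below. Hairpins with the same ratios, such as miR-486a and miR-486b, were counted separately. Among the 189 hairpins the 3p arm gave more reads on average in 87 and the 5p arm in 102. miR-22 had the 17th highest mean log2 ratio toward its 3p arm, 6.02 ± 0.320 (SD, n = 6 libraries). In either direction 41 hairpins were more one-sided, and the median hairpin favoured an arm by 8.28-fold. The hairpins next to miR-22 in this order were miR-378a, next above at 6.13 ± 0.484, and miR-222, next below at 5.87 ± 0.308 (SD, n = 6). miR-22 had the higher ratio in 2 of 6 libraries against miR-378a and in 4 of 6 against miR-222, so neither neighbour was apart from it beyond the spread of the libraries. The SD of miR-22 over the 6 libraries was close to the median of all hairpins (0.342), and 84 of the 189 had a lower one.

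**Figure D3:**
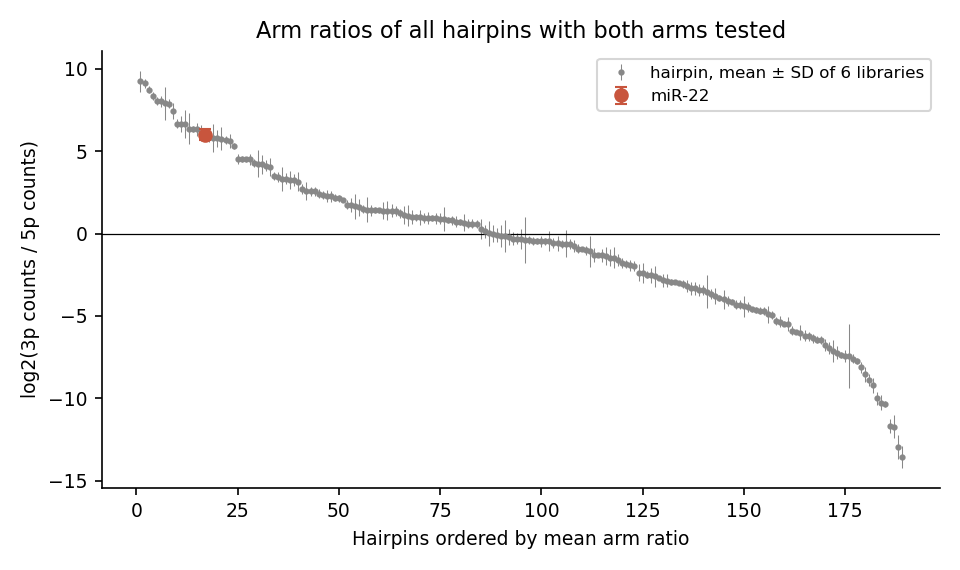
Mean log2 ratio of 3p to 5p counts (± SD over the 6 libraries) for 189 hairpins, ordered from 3p-dominated to 5p-dominated. Both arms of each were tested under matching names. miR-22, at 6.02, is 17th from the 3p-dominated end.

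By mean level miR-22-3p ranked 7th of the 619 tested miRNAs, and it was 7th in 5 libraries and 8th in control B. The next above was miR-99a-5p, with 27421 ± 3667 CPM in hypoxia and 31551 ± 7030 CPM in control, which was higher than miR-22-3p in all 6 libraries. The next below was miR-148a-3p, with 15808 ± 1792 CPM in hypoxia and 19740 ± 2456 CPM in control (SD, n = 3 each), and miR-22-3p was higher in 5 of 6 libraries. The ranges of miR-22-3p (17524 to 27669 CPM) and miR-148a-3p (13759 to 22410 CPM) overlapped across libraries. Within libraries their order was reversed only in control B (19686 CPM for miR-22-3p and 22410 CPM for miR-148a-3p). miRNA levels are counts per mature miRNA, not divided by length.

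miR-22-5p ranked 108th, and 97th to 122nd in single libraries. Its neighbours were miR-30b-5p, next above with a mean of 329 CPM, and miR-423-5p, next below with 319 CPM, beside 326 CPM for miR-22-5p (n = 6). It was higher than miR-30b-5p in 3 of 6 libraries and higher than miR-423-5p in 4 of 6, so these 3 levels were not separated. Between the groups, miR-30b-5p had 379 ± 21.4 CPM in hypoxia and 279 ± 22.0 CPM in control, and miR-423-5p had 283 ± 34.0 CPM in hypoxia and 356 ± 96.0 CPM in control (SD, n = 3 each). Neither passed edgeR over all tested miRNAs (adjusted p = 0.66 and 0.90).

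The spread of each arm over the 6 libraries was set beside that of miRNAs of like level. For miR-22-3p the SD of the log2 CPM was 0.23, above that of 13 of the 16 miRNAs within 10 ranks of it, whose median was 0.16. For miR-22-5p the SD was 0.28, above that of 11 of its 20 neighbours within 10 ranks, whose median was also 0.28. In the edgeR fit, which takes the groups into account, the biological coefficient of variation was 0.204 for miR-22-3p and 0.239 for miR-22-5p, each below the trend fitted at its level (0.222 for miR-22-3p and 0.262 for miR-22-5p). The arms did not vary together in every library. Taken from each arm's own mean, both were low in hypoxia A (-0.25 for 3p and -0.34 for 5p) and high in hypoxia B (0.41 for 3p and 0.13 for 5p). They lay on opposite sides in control A (0.10 for 3p and -0.23 for 5p) and in control B (-0.08 for 3p and 0.47 for 5p). In hypoxia C (-0.14 for 3p and -0.01 for 5p) and control C (-0.04 for 3p and -0.02 for 5p) both were slightly below their means.

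Other miRNAs were ranked by how closely their pattern over the 6 libraries followed each arm, as the root mean square difference in log2 CPM after centring each miRNA on its own mean. Among 361 candidates with a mean of at least 10 CPM, the nearest to miR-22-3p were miR-378c (0.10), miR-3068-5p (0.13) and miR-378d (0.14), where the median candidate was at 0.33. All 3 were highest in hypoxia B, at 63.5 CPM for miR-378c, 104 CPM for miR-3068-5p and 45.6 CPM for miR-378d. miR-22-5p stood 121st in that order, at 0.29.

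The nearest to miR-22-5p were miR-99a-5p (0.04), miR-24-2-5p (0.07) and miR-10b-5p (0.08), where the median candidate was at 0.35. These 3 had their highest level in control B and their lowest in hypoxia A, as miR-22-5p did. The level of miR-99a-5p was 23472, 30718 and 28073 CPM in hypoxia A, B and C, against 25761, 39373 and 29519 CPM in control A, B and C. These likenesses describe the same 6 libraries, were picked as the nearest of many, and carry no test. None of the 6 miRNAs passed edgeR between the groups, with adjusted p from 0.94 to 0.99.

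**Figure D4:**
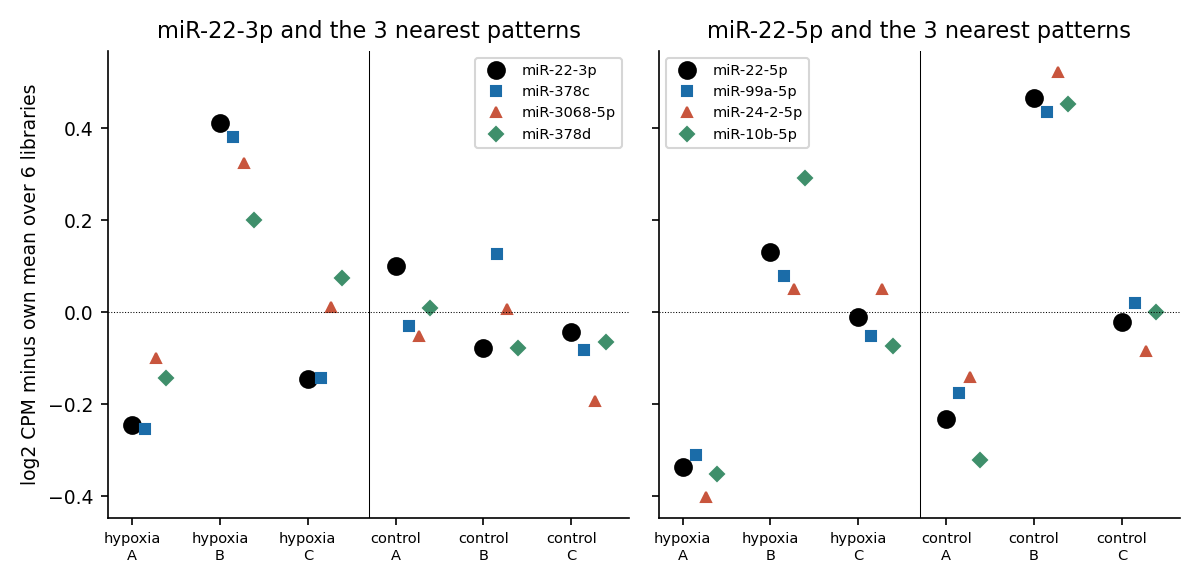
Log2 CPM of miR-22-3p (left) and miR-22-5p (right) with the 3 miRNAs nearest to each, every miRNA centred on its own mean over the 6 libraries. Points are single libraries, hypoxia left of the line and control right of it. miR-22-3p peaks in hypoxia B (0.41) and miR-22-5p in control B (0.47).

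A list of 25 miRNAs with described roles in heart muscle growth was set beside miR-22. Of these, 23 passed the filter, 17 with a log2 fold change above 0 and 6 below, with a median of 0.17. Over all 619 tested miRNAs 317 lay above 0 and 302 below, with a median of 0.01. None of the 23 passed edgeR, where 0% of all tested miRNAs were called without the block, and none passed with the letter block, where 2.26% were. The groups did not overlap for 1 of the 23, miR-133b-3p, a muscle miRNA with 2.49 ± 0.800 CPM in hypoxia and 1.11 ± 0.573 CPM in control (SD, n = 3 each), against 12.9% of all tested miRNAs. Its log2 fold change was 1.17 (SE 0.45, edgeR adjusted p = 0.66).

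Among the list's most abundant members, miR-21a-5p, known for its rise in injured and fibrotic heart, held 29.4% of known counts, more than miR-22-3p in each group. miR-27b-3p stood at 16275 ± 2085 CPM in hypoxia and 15668 ± 1078 CPM in control, miR-30a-5p at 16188 ± 1585 CPM in hypoxia and 15161 ± 1104 CPM in control, and miR-24-3p at 11366 ± 1684 CPM in hypoxia and 12362 ± 2065 CPM in control (SD, n = 3 each). Their log2 fold changes were -0.12 for miR-21a-5p (SE 0.14), 0.05 for miR-27b-3p (SE 0.14), 0.09 for miR-30a-5p (SE 0.13) and -0.12 for miR-24-3p (SE 0.17), all with an edgeR adjusted p of 0.99. Of these 23 miRNAs only miR-21a-5p had a higher mean level than miR-22-3p, whose own log2 fold change of 0.042 lay within the range of those 4.

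miR-210-3p, a miRNA induced through hypoxia-inducible factors and named in the title of the series, was measured in the same libraries. It averaged 528 ± 128 CPM in hypoxia and 232 ± 56.8 CPM in control (SD, n = 3 each). The groups did not overlap, as was so for 12.9% of all tested miRNAs. The log2 fold change of miR-210-3p was 1.19 (SE 0.25, edgeR adjusted p = 0.65 without the letter block and 0.024 with it). With that block 2.26% of all tested miRNAs were called. The 95% interval of miR-22-3p ended at 0.47 and that of miR-22-5p at 0.38, so a rise of the size fitted for miR-210-3p lay outside both.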

How the data were processed

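Small RNA was sequenced from 3 hypoxia and 3 control libraries. The authors deposited raw read counts, as whole numbers, for 1978 known and 838 predicted miRNAs. Per the submitters' processing notes, bcl2fastq 2.0, DESeq2 and mm10 were used, in roles not stated. For the aligner, read counter, miRNA release and oxygen level, details were not given in the sources used here. The predicted miRNAs (2510 to 4278 counts per library) entered only an alternative denominator.

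The tests ran in R 4.3.3, with edgeR 4.0.16 for the counts (filterByExpr, TMM, quasi-likelihood test, Benjamini-Hochberg adjustment over all tested miRNAs, threshold 0.05). Standard errors were derived from each log2 fold change and its F statistic. Arm ratios, log2 of counts plus 0.5, were fitted with limma 3.58.1. DESeq2 1.42.0 was an alternative. Shares were compared by exact permutation in scipy 1.17.1, and the hairpin was folded with ViennaRNA 2.7.2. The fits were tested on simulated counts drawn independently for each library. Any likeness of same-letter libraries was left out of that check.

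Same-letter libraries deviated together from their group means (correlations over the tested miRNAs of 0.28 to 0.52), against -0.44 to 0.12 for unlike letters. Deviations within a group sum to 0, so high same-letter correlations by themselves push the unlike-letter ones down, and the contrast is partly built in. The main tests used the group only and were unpaired. The letter entered only as a replicate block in alternative fits and in the within-letter differences. Pairing by letter comes from column names and values, not from the labels. Over 15 pairs of libraries the smallest chi-square was 134 times its degrees of freedom, so none was a copy. The members and lists were chosen with earlier results of these data known. Named miRNAs were the arms, neighbours in level and in arm ratio, the 3 nearest patterns per arm, seed matches, the growth list's 4 most abundant members, its calls, and miR-210-3p.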

Additional observations from a re-analysis of the deposited data

How the results depend on the processing

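Neither miR-22 arm nor their ratio passed under any of the 17 alternative settings per arm and 13 for the ratio. The 13 include the exact permutation test, which could not pass, as its smallest possible p is 0.1. For miR-22-3p the log2 fold change ran from -0.21 (without hypoxia B) to 0.16 (without hypoxia A) when single libraries were left out, was -0.012 without control B, 0.013 with the letter as a replicate block and -0.25 with that block and no B libraries. For miR-22-5p it ran from -0.32 (without control A) to 0.043 (without control B), and was -0.14 with the block. The log2 arm ratio ran from -0.076 (without control B) to 0.36 (without control A), and was 0.16 with the block and -0.18 with the block and no B libraries. Differences in share ran from -0.113 (without hypoxia B) to 0.281 percentage points for miR-22-3p and from -0.00483 to 0.00129 for miR-22-5p. The cause of these reversals was not tested. Known miRNAs called were 0 when any 1 library was left out, 1 with DESeq2, 4 without the filter on low counts, 14 with the block, and with the block 0 without the A or the C libraries and 23 without the B libraries. Hairpins called were 1 with a pseudocount of 5, 7 at a mean of at least 10 CPM, 0 with the block, 0 to 2 without single libraries, and with the block 14, 2 and 0 without the A, B and C libraries. The blocks without a letter were chosen after the data were seen. Scaling to library size only put the median of all tested miRNAs at 0.08, against 0.01 with TMM. With reads taken as independent, counting depth limited neither arm, and 3 libraries a group leave the intervals given above.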
